A study of Mus musculus with 2 samples.

Results

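White blood cells are rich in a small set of microRNAs, and 8 of the genes that encode them were followed in mouse skeletal muscle. They were chosen by name: Mir142, Mir142b, Mir223, Mir150, Mir155, Mir146, Mir146b and Mir342, which are 8 of the 2202 microRNA genes in the deposited count tables. The muscle was the gastrocnemius of the calf, taken from female B6CASTF1/J mice, an F1 hybrid of laboratory and wild-derived parents, at an age of 25 days. Small RNA from whole tissue was sequenced in 2 libraries, biological replicates 1 and 2 of 1 group, without treatment or a second tissue. The labels number the source females 3 and 4 but give both the same donor identifier, so SDs describe the spread between these libraries and may not be a spread between animals.

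A microRNA gene is transcribed as a longer precursor, cut to a hairpin and then to a short mature strand, which pairs with messenger RNAs through its seed, bases 2 to 8. Some of the genes here are restricted to a lineage: miR-142 is made throughout the haematopoietic lineages, miR-223 mainly in granulocytes and other myeloid cells, and miR-150 in mature lymphocytes. Others are inducible: miR-155 rises in activated lymphocytes and macrophages, and miR-146a and miR-146b are induced through NF-kB and dampen Toll-like receptor signalling. Mir342 is carried by a host gene, Evl, which encodes an actin regulator. Cells other than leukocytes can also make miR-146a, miR-146b, miR-155 and miR-342.

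Mature strands are shown because a shared locus or a shared full strand sets what the gene counts can tell apart. Strands that share only a seed can still differ in their other bases. They come from RefSeq on GRCm38.p6, which held entries for 8 of the 8 genes; each is written 5′ to 3′ with the seed in capitals.
miR-142a-5p: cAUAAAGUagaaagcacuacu
miR-142a-3p: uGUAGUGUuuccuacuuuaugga
miR-142b: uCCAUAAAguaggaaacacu
miR-223-3p: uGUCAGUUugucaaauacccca
miR-155-5p: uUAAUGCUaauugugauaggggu
miR-146a-5p: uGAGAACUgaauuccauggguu
miR-146b-5p: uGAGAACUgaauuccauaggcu
miR-342-3p: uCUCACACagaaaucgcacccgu

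The 5p strands of miR-146a and miR-146b share their seed and are identical over their first 17 bases. They differ at 2 positions counted from the 5′ end of miR-146a-5p, G18A and U21C. No other seed printed here was shared with another of the 1679 mature microRNAs in the RefSeq table. The sequence of miR-142b lies within the reverse complement of miR-142a-3p, since both come from the same stretch of DNA read on opposite strands. It also shares a run of 10 bases with miR-142a-5p, shifted so that the seeds differ. No strand shown matched a GENCODE M21 transcript other than its own gene, that gene's host or the opposite-strand partner. Strands not shown, among them those of Mir150, were not searched, and matches elsewhere in the genome were not checked.

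Apart from Mir142 and Mir142b, the genes sit at separate places in the mm10 assembly, and the annotation around them differs. Mir142 (ENSMUSG00000105196.1, chr11:87756864-87756927, forward strand) lies in an intron of the non-coding transcript gene Mir142hg and wholly inside Mir142b (ENSMUSG00000065420.2, chr11:87756841-87756955, reverse strand). Mir223 (ENSMUSG00000076066.1, chrX:96242817-96242926) lies within an exon of F630028O10Rik, and Mir155 (ENSMUSG00000065397.1, chr16:84714140-84714204) within an exon of Mir155hg, a gene with no protein product, each on the strand of the microRNA. Mir146b (ENSMUSG00000070127.2, chr19:46342762-46342870) lies in an intron of Mfsd13a and Mir342 (ENSMUSG00000065436.1, chr12:108658620-108658718) in an intron of Evl, both on the host's strand. Mir146, the gene of miR-146a (ENSMUSG00000065601.1, chr11:43374397-43374461, reverse strand), and Mir150 (ENSMUSG00000065495.1, chr7:45121757-45121821) overlap no other annotated gene. Leaving that pair aside, the nearest other microRNA gene was 5097 bases away or farther for every one of them, Mir5121 beside Mir150 being the nearest.

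Levels are CPM: counts on the strand of the gene, scaled so that all microRNA genes of a library sum to 1000000. Replicate 1 held 1573213 such counts and replicate 2 held 5429127, 3.45 times as many, so levels in replicate 2 are the more precise. A count of 0 allows up to 3 counts, which as a one-sided limit is 1.91 CPM for replicate 1 and 0.553 CPM for replicate 2. Intervals on levels above 0 are two-sided exact binomial 95% intervals, and they and these limits cover counting error only. Multi-mapped reads, 68.6% of the total in replicate 1 and 69.7% in replicate 2, entered no gene. Genes that share their mature strand with another locus may thus be undercounted. Ranks and neighbours in level hold for the counted reads only. The 8 genes together held 0.352% of the gene counts of replicate 1 and 0.307% of those of replicate 2. Of the 8, 6 reached a CPM of 2 in both libraries, as did 324 of all 2202 genes. In bulk tissue, fewer leukocytes and less microRNA per leukocyte cannot be told apart, and which cells the reads came from was not tested.

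**Figure D1:**
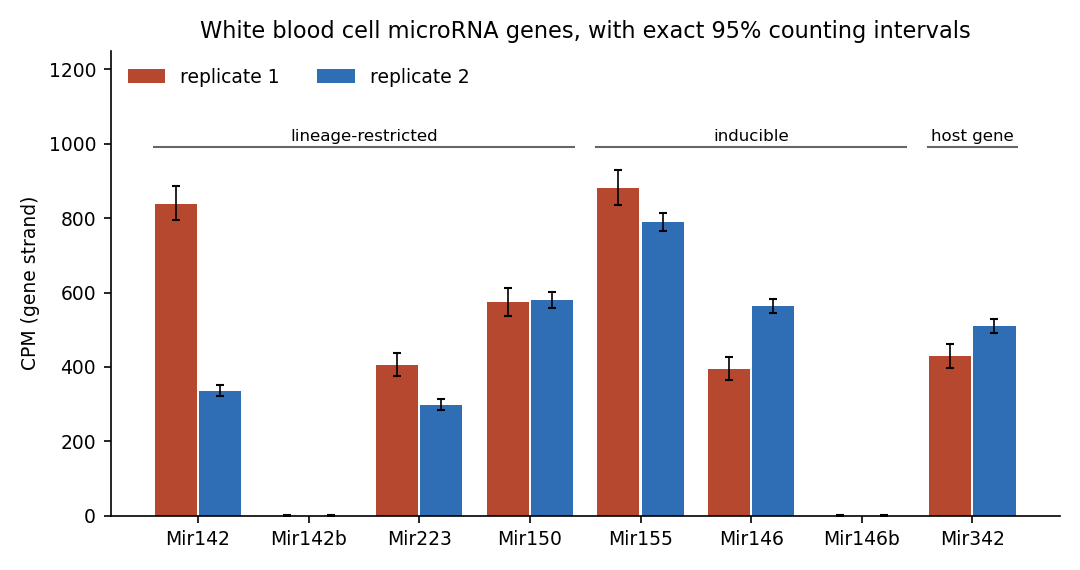
Level of each gene in CPM (vertical axis) in replicate 1 and replicate 2, with exact 95% counting intervals as bars, which at 0 counts end at the limit of 3 counts; the lines at the top name the classes. Mir155 had the highest level in both libraries, but in replicate 1 its interval overlapped that of Mir142. Mir142 stood at 839 CPM in replicate 1 against 336 CPM in replicate 2, and Mir142b and Mir146b lay at the foot of the axis.

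Among the lineage-restricted genes, Mir142 varied most between the libraries. It had 1320 counts in replicate 1 and 1823 in replicate 2, or 839 CPM (794 to 886) and 336 CPM (321 to 352). Its mean of 587 ± 356 CPM (SD, n = 2) gave it rank 88 of 2202 genes, and the intervals of the libraries lay far apart. Mir223 had 406 CPM (375 to 438) in replicate 1 and 298 CPM (284 to 313) in replicate 2, a mean of 352 ± 76.0 CPM and rank 116. Mir150 had 574 CPM (537 to 613) in replicate 1 and 579 CPM (559 to 600) in replicate 2. Its intervals overlapped, and its SD of 3.88 CPM around a mean of 577 CPM was the smallest of the 6 genes detected in both libraries.

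Mir142b was not detectable. Its own strand held 0 counts in both libraries, while the strand opposite it held 1320 counts in replicate 1 and 1823 in replicate 2, exactly the counts of Mir142. With Mir142b at the limit of 3 counts, Mir142 was at least 440-fold higher in replicate 1 and at least 608-fold higher in replicate 2. In the column that ignores strand, where a read in the overlap falls on both genes, both were listed at 0. The Mir142 reads equal 0.370% of the reads tallied as ambiguous in replicate 1 and 0.138% in replicate 2.

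Of the inducible genes, Mir155 had the highest mean level of all 8 genes and Mir146b was at the edge of detection. Mir155 had 882 CPM (836 to 930) in replicate 1 and 789 CPM (765 to 813) in replicate 2, a mean of 835 ± 66.2 CPM and rank 75. Mir146 had 395 CPM (364 to 427) in replicate 1 and 563 CPM (544 to 584) in replicate 2, a mean of 479 ± 119 CPM and rank 96. Replicate 2 was thus the higher library for Mir146, the reverse of Mir142 and Mir223. Mir146b had 0 counts in replicate 1 and 1 count in replicate 2. Set against the limit of 3 counts, Mir146 was at least 207-fold higher than Mir146b in replicate 1; in replicate 2 the ratio was 3059, with an exact counting interval of 549 to 120863. All but 1 of the counts on the genes that share the miR-146 seed were thus on Mir146. Arms of a hairpin were not counted apart, so which strand of each gene was sequenced is not known.

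Mir342, the gene in the Evl intron, had 429 CPM (397 to 463) in replicate 1 and 509 CPM (490 to 528) in replicate 2, a mean of 469 ± 56.5 CPM and rank 99. Its intervals did not overlap, with replicate 2 the higher. The host transcript was not measured in these libraries.

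The order of the 6 detected genes was only in part the same in both libraries. By mean level it ran Mir155, Mir142, Mir150, Mir146, Mir342 and Mir223. Of its neighbouring means, Mir150 and Mir146 differed by 97.6 CPM, under the SD of 119 CPM of Mir146, and Mir146 and Mir342 by 10.1 CPM. Mir155 and Mir142 differed by 248 CPM and Mir142 and Mir150 by 10.7 CPM, both under the SD of 356 CPM of Mir142. Mir342 and Mir223, 117 CPM apart, were the only neighbours whose means differed by more than either SD, but in replicate 1 their counts were not separable, at a ratio of 1.06 (0.948 to 1.18), against 1.71 (1.61 to 1.82) in replicate 2. In replicate 1 the counts of Mir155 were 1.05 times those of Mir142, with an interval of 0.974 to 1.13 that held equality, and in replicate 2 they were 2.35 times as high (2.22 to 2.48). Within a library, the ratio of one gene's counts to another's does not depend on scaling. Of 15 pairs of detected genes, 10 had the same order in both libraries, 7 of them with intervals that excluded equality in both. In 3 pairs the order was opposite with intervals that excluded equality in both libraries: Mir142 was 1.46-fold Mir150 in replicate 1 and 0.579-fold in replicate 2, and 2.13-fold and 0.596-fold Mir146, and 1.96-fold and 0.660-fold Mir342. The 3 opposite pairs all hold Mir142.

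**Figure D2:**
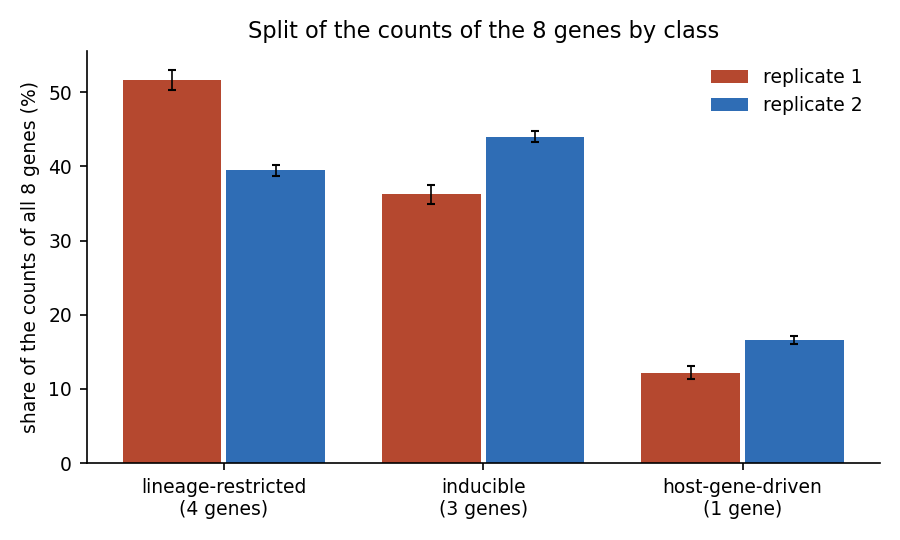
Share of the counts of all 8 genes (vertical axis, percent) held by each class in replicate 1 and replicate 2, with exact 95% intervals. The lineage-restricted share was 51.6% in replicate 1 and 39.5% in replicate 2, and the inducible share 36.2% and 44.0%.

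Set against each other, lineage-restricted genes led in replicate 1 and inducible genes in replicate 2. The lineage-restricted genes summed to 1819 CPM in replicate 1, against 1213 CPM in replicate 2, the inducible genes to 1277 and 1352 CPM, and Mir342 alone made up the host-gene-driven class. As a share of the counts of the 8 genes, the lineage-restricted class held 51.6% (50.3 to 52.9) in replicate 1 and 39.5% (38.7 to 40.2) in replicate 2. The inducible class held 36.2% (35.0 to 37.5) in replicate 1 and 44.0% (43.2 to 44.7) in replicate 2, and Mir342 12.2% (11.3 to 13.1) and 16.6% (16.0 to 17.1). Lineage-restricted counts were 1.42 times the inducible counts in replicate 1 (1.34 to 1.51) and 0.897 times in replicate 2 (0.868 to 0.928).

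That change of order rested on Mir142. Without it, an alternative chosen after the data were seen, the lineage-restricted share was 36.5% in replicate 1 and 32.0% in replicate 2, below the inducible share of 47.6% and 49.4% in both. The other genes of its class, Mir223, Mir150 and Mir142b, summed to 980 CPM in replicate 1, against 877 CPM in replicate 2. The class labels also overlap. Mir155 and Mir223 lie in exons, and Mir142 and Mir146b in introns, of other genes on their own strand. Only Mir155 was moved, a choice also made after the data were seen. With it counted as host-gene-driven, that class held 39.7% and the inducible class 14.8%, as means over the libraries.

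Between the libraries, genes of 1 class did not move together. The log2 ratio of replicate 1 over replicate 2 was 1.32 for Mir142 (1.22 to 1.42), 0.45 for Mir223 (0.31 to 0.58) and -0.013 for Mir150 (-0.12 to 0.094). It was 0.16 for Mir155 (0.073 to 0.25), -0.51 for Mir146 (-0.64 to -0.39) and -0.25 for Mir342 (-0.37 to -0.12). In a two-sided exact binomial test over all 364 genes with at least 10 counts, 5 of the 6 genes tested passed an adjusted p of 0.05, and 45.3% of all genes tested passed it too. Mir142, Mir223 and Mir155 passed as higher in replicate 1, as did 30.2% of all genes tested, and Mir146 and Mir342 as higher in replicate 2, as did 15.1%. Mir150 did not pass (exact test, adjusted p = 0.898). The test compares 2 libraries and not conditions, and takes counting as the only source of error.

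Only Mir142 was at least 2-fold apart, by 2.50-fold (exact binomial test, adjusted p = 8.28e-130), and 16.2% of all genes tested were that far apart. The middle 95% of the 170 genes with a mean CPM of at least 100 ran from -0.65 to 1.10 on the log2 scale, and Mir142 lay above it while the other 5 genes lay inside. Over all 324 detected genes that range was -0.76 to 1.60 and held all 6. The direction of small ratios depended on scaling: TMM factors lowered every log2 ratio by 0.18 and DESeq2 size factors by 0.20. Under these Mir155 turned to -0.016 and -0.040, neither past the exact test, and Mir150 passed it as higher in replicate 2, at -0.19 and -0.22. Over all genes, 110 passed as higher in replicate 1 and 55 as higher in replicate 2 with library totals, against 70 and 104 with TMM factors. Mir142, Mir223, Mir146 and Mir342 kept direction and call under both scalings.

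**Figure D3:**
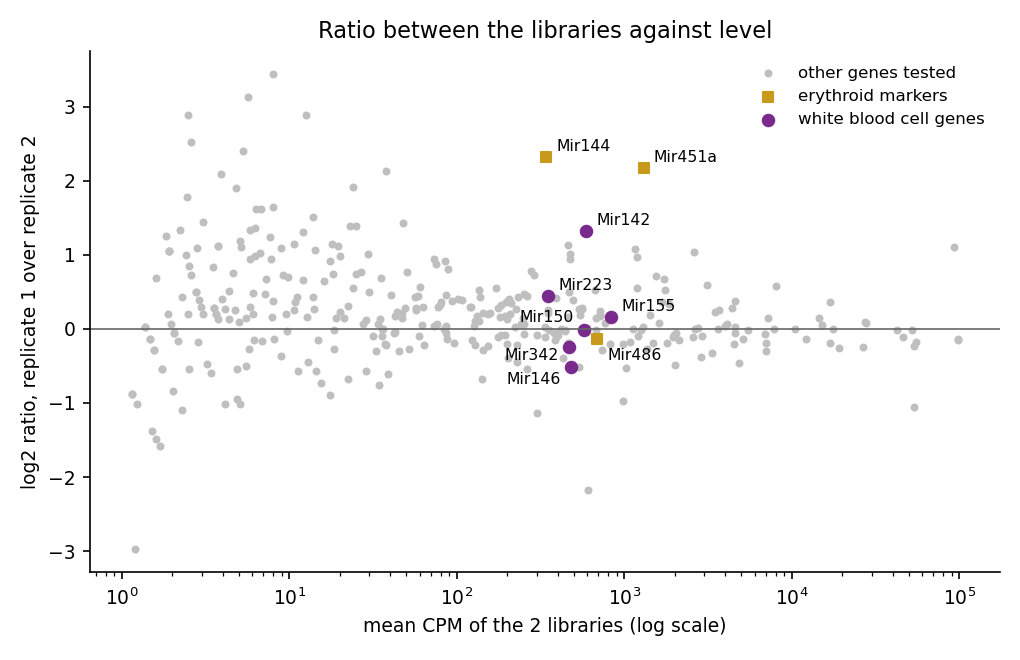
Log2 ratio of replicate 1 over replicate 2 (vertical axis) against the mean CPM of the 2 libraries (horizontal log axis) for the 364 genes tested; squares are erythroid markers and large points are the white blood cell genes. Mir142 stood at 1.32, below Mir451a at 2.17 and Mir144 at 2.32, while the other white blood cell genes lay between -0.51 and 0.45.

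Markers of other cell types also differed between the libraries, and their part in these ratios was not tested. No listed marker was at 0. The 3 erythroid genes summed to 3354 CPM in replicate 1, against 1304 CPM in replicate 2. Mir451a, the main microRNA of red blood cells, stood at 2131 CPM in replicate 1 against 473 CPM in replicate 2, and its cluster partner Mir144 had 571 and 114 CPM. Mir486, which muscle also expresses, stood at 651 CPM in replicate 1 against 717 CPM in replicate 2. The red cell genes Mir451a and Mir144 were thus higher in the same library as Mir142 and Mir223, by 4.51-fold for Mir451a, 2.50-fold for Mir142 and 1.36-fold for Mir223. Mir155 had that direction too, by 1.12-fold with library totals, and lost it under TMM and DESeq2 scaling. Mir150, a lymphocyte gene, was at 0.991-fold and did not pass the test, and Mir146 and Mir342 had the opposite direction. The 3 listed skeletal muscle genes, Mir206, Mir208b and Mir499, summed to 35271 CPM in replicate 1, against 73892 CPM in replicate 2. Muscle genes outside the list were mixed with library totals. Mir1a-2, Mir133a-2 and Mir208a passed the exact test as higher in replicate 1 and Mir133a-1 as higher in replicate 2. Mir1a-1 and Mir133b did not pass. Counts were low for Mir133a-2, with 12 in replicate 1 and 11 in replicate 2, and for Mir133a-1, with 19 and 124. Multi-mapped reads entered no gene, so counts of the Mir1a and Mir133a genes may understate the level. The log2 ratio of Mir1a-2 was 0.25 (0.11 to 0.38), and its call may depend on scaling. The smooth muscle and fibroblast genes, led by Mir143, summed to 132795 and 63344 CPM, a sum made up almost wholly of Mir143. Of that list, Mir143 and Mir145a passed the exact test as higher in replicate 1, and Mir214 as higher in replicate 2, at 1674 CPM in replicate 1 against 2355 CPM in replicate 2. Mir199a-1 had 2 counts in each library, and Mir199a-2, off the list, had 45 in replicate 1 and 107 in replicate 2. As multi-mapped reads entered no gene, these counts may understate the level. Mir199b, also off the list, passed as higher in replicate 1, at 111 CPM against 58.8 CPM in replicate 2. Endothelial Mir126a stood at 93328 CPM in replicate 1 against 103367 CPM in replicate 2.

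**Figure D4:**
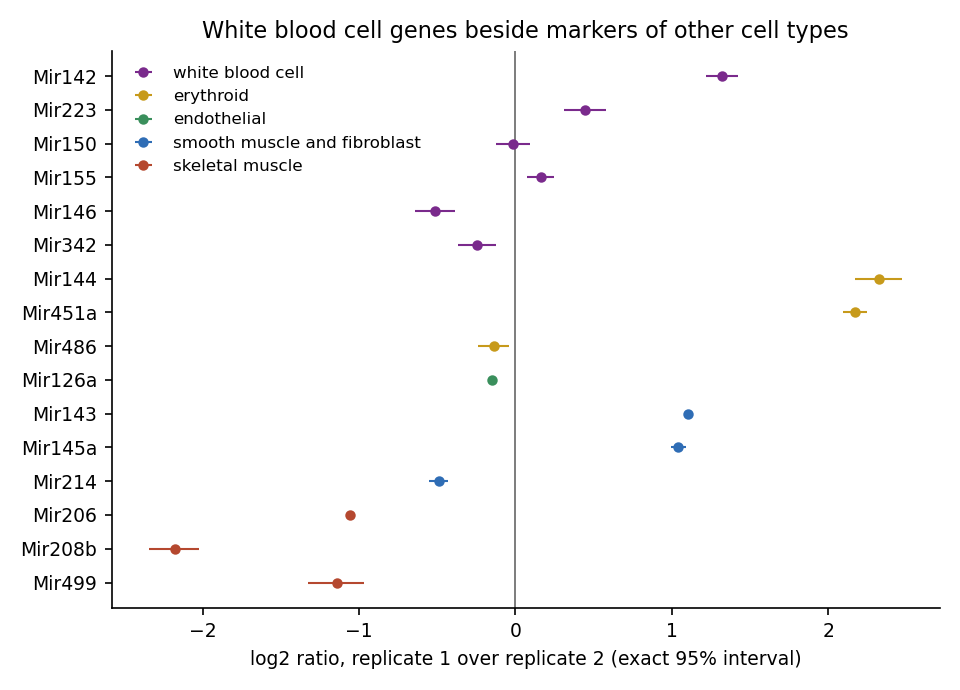
Log2 ratio of replicate 1 over replicate 2 (horizontal axis) with exact 95% counting intervals for the white blood cell genes and for markers of other cell types. The white blood cell genes spread from -0.51 for Mir146 to 1.32 for Mir142. They lay between the listed skeletal muscle markers on the left and Mir144 and Mir451a on the right.

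A further list of 28 genes with known roles in leukocytes, most of them active in many other cells, was read beside the 8. Of these, 27 were tested, and 14 passed the exact binomial test as higher in replicate 1 and 0 as higher in replicate 2, beside 30.2% and 15.1% of all genes tested; 13 did not pass. With DESeq2 size factors the same list gave 11 higher in replicate 1 and 7 higher in replicate 2, beside 17.9% and 29.4% of all genes tested under that scaling. The list's median log2 ratio was 0.33, that of the 8 white blood cell genes, over the 6 tested, was 0.074, and that of all genes tested was 0.15. Mir21a, induced with miR-155 in activated macrophages but abundant in many cells, stood at 9619 CPM in replicate 1 against 6431 CPM in replicate 2. Its mean of 8025 CPM exceeded that of all 8 white blood cell genes together, 3524.6 CPM in replicate 1 and 3074.5 in replicate 2. Mir132, another gene induced by Toll-like receptor ligands, stood at 193 CPM in replicate 1 against 159 CPM in replicate 2. It passed with library totals, at a log2 ratio of 0.28 (0.085 to 0.47). The lower end lies under the 0.18 and 0.20 that TMM and DESeq2 factors take off every ratio, so the call may depend on scaling. Mir511, in the gene of the macrophage mannose receptor Mrc1, stood at 35.0 CPM in replicate 1 against 24.9 CPM in replicate 2 and did not pass (exact test, adjusted p = 0.0769). Mir147, a further macrophage-induced gene, had 3 counts in each library and was not tested.

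Mir106b and Mir93, of a cluster related to miR-17 that dividing cells of all kinds express, were also on that list. Mir106b stood at 1565 CPM in replicate 1 against 800 CPM in replicate 2, Mir93 at 2134 against 1336 CPM, and Mir15b, which restrains cell cycle genes, at 632 against 312 CPM. Mir29a, Mir25, Mir20a, Mir10a, Mir652, Mir17, Mir125a, Mir34a and Mir181b-2 also passed as higher in replicate 1 with library totals. They ranged between 1.17-fold for Mir125a and 1.72-fold for Mir25. The calls of Mir181b-2, at a log2 ratio of 0.28 (0.17 to 0.38), and of Mir125a, at 0.23 (0.19 to 0.27), may depend on scaling. Of genes with a mean CPM of at least 100, Mir181c, Mir181d, Mir181a-1, Mir27a, Mir24-2 and Mir92-1 did not pass with library totals. Their log2 ratios there were all smaller in size than the 0.18 and 0.20 by which TMM and DESeq2 factors lower every ratio. A gene that did not pass is thus not shown to be unchanged. Mir181a-1, Mir181b-2, Mir24-2 and Mir92-1 share their mature strand with a second locus, so their levels are uncertain. Mir181c and Mir181d, of a family that tunes lymphocyte receptor signalling, stood at 782 and 441 CPM in replicate 1, against 742 and 446 CPM in replicate 2.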

How the data were processed

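The authors deposited raw counts, 1 table per library without a header, per the readme files on mm10 with the GENCODE M21 annotation; for the aligner and counter, names and settings were not given in the sources used here. From the values, the count columns ignore strand, follow the gene's strand and oppose it; the gene-strand column was used. The 4 tally rows stayed out of library totals. All 2202 identifiers matched GENCODE M21.

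CPM were computed on library totals. Ratios used an offset of 0.5 counts. With 1 group, a quasi-likelihood test between conditions was not possible; the 364 genes that reached 10 counts over both libraries were compared by exact binomial test, adjusted by Benjamini-Hochberg over all of them. The test was also run on simulated counts that varied by counting error only. That run cannot show how the test behaves under wider spread between libraries. edgeR 4.0.16 and DESeq2 1.42.0 in R 4.3.3 gave alternative scalings; the other steps ran in Python 3.11.15 (scipy 1.17.1 for tests, numpy 2.4.6 and pandas 2.3.3 for tables, matplotlib 3.10.9 for plots).

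The 8 genes, their classes and all lists were chosen with earlier results of these data known. Named were the 8 genes, list genes past the test or with a mean CPM of at least 100, the 3 genes nearest to Mir142 and Mir223 in ratio, and neighbours in level. All listed markers of other cell types were named too. Mir511 and Mir147 were named after their values were seen. Mir208a, Mir199a-2, Mir199b and the Mir1a and Mir133 genes were also named outside these rules.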

Additional observations from a re-analysis of the deposited data

How the results depend on the processing

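With all aligned reads as the denominator, the summed level of the 8 genes was 778 per 1000000 of them. In the column that ignores strand, where Mir142 is listed at 0, the lineage-restricted share was 34.3% and the inducible share 48.5%, and without Mir142 they were 34.3% and 48.5%. With Mir155 counted as host-gene-driven the inducible share was 14.8% and the host-gene-driven share 39.7%. The log2 ratio of the lineage-restricted class was 0.41 with TMM, 0.38 with DESeq2 size factors, 0.13 with strand ignored and 0.16 without Mir142, against 0.58 with library totals. That of the inducible class was -0.26 with TMM and -0.28 with DESeq2 against -0.082, and that of Mir342 -0.42 and -0.45 against -0.25. Mir155 turned to -0.016 with TMM and -0.040 with DESeq2, and Mir150 passed at -0.19 and -0.22; both shifts follow from the scaling factors. Of the 8 genes, the number detected and the number past the test stayed within 1.5 times under every alternative run, as did the number past the test in the list of 28 genes, both directions together. By direction the split moved: over all genes, DESeq2 size factors gave 65 higher in replicate 1 and 107 higher in replicate 2, TMM 70 and 104, and library totals 110 and 55. Leaving out either replicate moved the lineage-restricted share between 39.5% and 51.6%, and no ratio or test can be had from 1 library. No paired analysis was possible because there is only 1 group. Depth limits Mir142b, with 0 counts in both libraries, and Mir146b, with 0 and 1.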

Other observations

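For Mir142, at a log2 ratio of 1.32, nearest genes were sought among the 164 other genes detected with a mean CPM of at least 100. They were Mir708 at 1.13, Mir143 at 1.11 and Mir338, a microRNA of myelinating glia, at 1.08. For Mir223, at 0.45, the nearest were Mir467d at 0.45, Mir467e at 0.44 and Mir503 at 0.43. Likeness here is the absolute difference of log2 ratios over 2 libraries and describes these libraries only.

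By mean level, Mir155 lay between Mir409 at 986 CPM and Mir676 at 820 CPM. Mir142 and Mir150 both lay between Mir148a at 602 CPM and Mir181b-2 at 561 CPM. Mir146 lay between Mir185 at 494 CPM and Mir221 at 473 CPM. Mir342 lay between Mir15b at 472 CPM and Mir29c at 469 CPM, and Mir223 between Mir101a at 356 CPM and Mir30b at 349 CPM.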
